A study of Drosophila melanogaster with 3 samples.

Results

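The 10 genes described here encode Drosophila melanogaster insulator and boundary proteins or their close partners: Chro, pzg, Cp190, Dref, BEAF-32, CTCF, su(Hw), mod(mdg4), Ibf1 and Ibf2. They were chosen by name, with earlier results of these data known, and located in the Ensembl annotation of genome release 6 (dm6). There they are 10 of 13945 protein-coding genes on the 6 chromosome arms analysed. The question was where CG1647, a zinc-finger protein, was mapped at these genes by chromatin immunoprecipitation and sequencing (ChIP-seq). The study has 1 group of 3 biological replicates: whole embryos aged 0 to 24 h, of both sexes, from a transgenic line that stably expresses CG1647 with GFP at its C terminus. The sample descriptions name an antibody to GFP for the pull-down, although the antibody field reads CG1647. A tagged protein from an inserted transgene stood in for the native one, all embryonic tissues and stages were mixed, and the labels name no second condition. Each peak carries a summit (its highest base) and a signal, the peak caller's own enrichment value, on which ranks are based (rank 1 is the strongest). The retained list held 3123 pooled peaks past the submitters' reproducibility threshold, with signals of up to 2899 and a median of 189. The pooled candidate list held 19204 peaks with background included, and the lists of replicates 1, 2 and 3 held 30000, 17977 and 30000 candidates. The weakest retained peak had a signal of 126.246, and the next pooled candidate below it 126.225. The retained list was therefore the 3123 pooled candidates of highest signal, and retention does not show that a site ranked alike in all replicates. Read depth is unknown, because the lists hold no read counts.

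Insulators are DNA elements that keep enhancers from acting on the wrong promoter and that mark the borders of chromosomal domains. In flies, DNA-binding proteins such as BEAF-32, CTCF, su(Hw) and the Ibf pair recognise these elements. BTB-domain cofactors, chiefly Cp190 and the mod(mdg4) isoforms, join bound sites to one another. Chro (a chromodomain protein) and pzg (the zinc-finger protein Z4) act together in the open interbands of polytene chromosomes, and Dref, a regulator of proliferation genes, binds the DNA replication-related element (DRE), which overlaps the BEAF-32 recognition letters.

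The stretches shown here come from 6 of the 7 members in which known letters of insulator proteins were found near a retained summit; BEAF-32 also had a CGATA, 53 bp from its summit at the last start, and is not printed. They were taken from the RefSeq release 6 genome on the strand of the member. Capitals mark CGATA (bound by BEAF-32), the DRE (TATCGATA, which holds CGATA on both strands), the CTCF core AGNNGGCGC and the su(Hw) core TGCATANTT, each in either direction. Chro (chr3L:22878880-22878909, minus strand, in its 5′ UTR), pzg (chr3L:21285908-21285937, plus strand, in the 5′ UTR of its neighbour CG12974) and mod(mdg4) (chr3R:21365418-21365447, minus strand) are 30 bases each. For Cp190 the whole gap to its neighbour (chr3R:15275242-15275521, minus strand) is given because 2 summits lie in it, and then 30 bases across its transcript start (chr3R:15275227-15275256, minus strand). Dref is shown over the gap to RpL13 (chr2L:9967230-9967312, minus strand), and CTCF over the part of its intron next to the summit (chr3L:7356460-7356580, minus strand).
Chro: gttagtttaaagcTATCGacaggcaataca
pzg: aaataattacgtTATCGtaatgaacggcaa
Cp190, gap: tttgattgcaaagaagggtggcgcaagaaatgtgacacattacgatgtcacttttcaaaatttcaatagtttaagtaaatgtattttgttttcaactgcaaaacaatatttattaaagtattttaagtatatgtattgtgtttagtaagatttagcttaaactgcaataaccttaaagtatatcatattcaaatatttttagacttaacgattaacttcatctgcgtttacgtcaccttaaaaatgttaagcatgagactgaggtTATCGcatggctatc
Cp190, start: TATCGcatggcTATCGATAgctgccgagcg
Dref: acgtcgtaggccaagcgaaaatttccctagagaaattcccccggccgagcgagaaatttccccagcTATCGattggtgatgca
CTCF: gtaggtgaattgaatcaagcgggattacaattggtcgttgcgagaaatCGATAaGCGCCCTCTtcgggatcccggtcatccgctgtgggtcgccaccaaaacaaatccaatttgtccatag
mod(mdg4): caataccaataTGCATATTTtgctataatt

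CG1647 had a retained summit within 500 bp of a transcript start (TSS) at 6 of the 10 members, against 16.2% of all protein-coding genes. These were Chro, pzg, Cp190, Dref, BEAF-32 and CTCF. Counting the gene body and 1 kb around each TSS added mod(mdg4), for 7 of 10 members against 21.3% of all genes. All 10 had at least 1 candidate summit in the pooled list over the same span, a mark that 59.4% of all genes carried. A promoter peak that also ranked in the best 3123 of all 3 replicate lists was present at 4 members, Chro, pzg, Cp190 and Dref, against 9.94% of all genes. The members were chosen with earlier results of these data known, so these counts are descriptions. Among the 2266 genes with a retained promoter summit, whose strongest signals had a median of 202 and quartiles of 155 and 297, Chro ranked 6, Cp190 261, pzg 610, Dref 888, BEAF-32 1529 and CTCF 1956. The bound members therefore ran from near the top of that distribution to its lowest part.

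**Figure D1:**
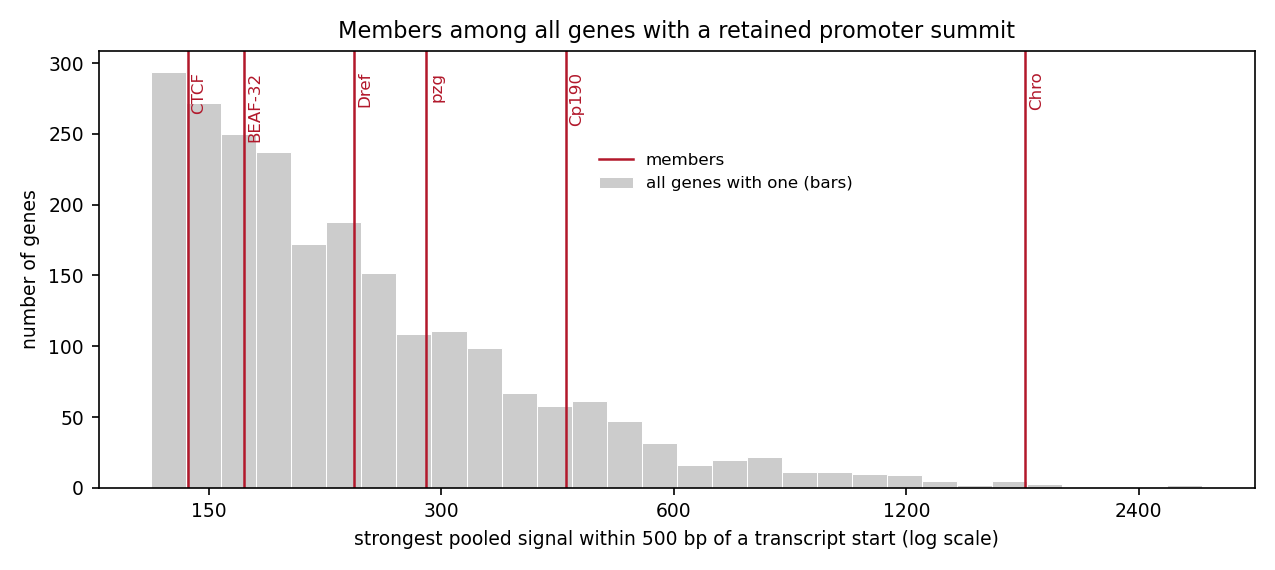
Histogram of the strongest pooled signal within 500 bp of a transcript start (x axis, log scale) over the 2266 protein-coding genes with a retained promoter summit (bars, number of genes), with a line for each of the 6 members. Chro stands at 1711 in the sparse upper tail, and CTCF at 141 lies among the weakest genes.

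Chro carried the strongest site of the set. Its single summit (chr3L, position 22878878) had a pooled signal of 1711 and rank 8 of 3123. Its signals were 465, 773 and 477 in replicates 1, 2 and 3, at ranks 10, 10 and 5. The site was thus in the top 10 of every list, and the 3 replicate summits lay within 5 bp of one another, against a median range of 41 bp (quartiles 18 and 74) over the 3090 retained peaks with a candidate in all replicates. The summit sat 106 bp inside the transcript that starts farthest upstream, 1 of 5 annotated, and upstream of the start that 3 of the 5 share (position 22878768). The CGATA shown for Chro lies 16 bp upstream of the summit. Ssl1, a gene for a subunit of the general transcription factor TFIIH, starts on the other strand 105 bp from the first Chro start, and the summit was 211 bp upstream of it. The gene with the most similar ranks across the replicates was PNPase, the polynucleotide phosphorylase gene, with a pooled signal of 1720. Their rank percentiles differed by 0.0245 points in all, summed over the 3 replicates, among 2247 genes compared.

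At pzg, whose product works together with Chro at interbands, the summit (chr3L, position 21285920) had a pooled signal of 287 and rank 699. The signals were 111, 141 and 54.0 in replicates 1, 2 and 3, at ranks 383, 505 and 2105. Replicate 3 placed the site far lower than the others did, although still inside its best 3123. The replicate summits spread over 114 bp, the widest range among the members' sites. The pooled summit lay 179 bp upstream of pzg and 42 bp inside CG12974, which starts on the other strand 137 bp from pzg. The CGATA shown for pzg begins at the base of the pooled summit. Phs came closest to pzg in ranks, at a summed difference of 1.93 percentile points and a pooled signal of 337.

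Cp190, the BTB zinc-finger cofactor shared by several insulator proteins, had 2 retained summits 204 bp apart in overlapping peaks. The stronger one (chr3R, position 15275296) had a pooled signal of 435 and rank 276, and lay 55 bp upstream of the first Cp190 start. In replicates 1, 2 and 3 its signals were 82.6, 200.4 and 154 and its ranks 720, 234 and 200. Replicate 1 was the low one, and the 3 summits agreed to 9 bp. The second summit (position 15275500) had a pooled signal of 250.3 and rank 915, with replicate signals of 28.5, 80.6 and 108 and ranks of 7369, 1442 and 436. In replicate 1 its own candidate lay outside the best 3123. This second summit was 259 bp from Cp190 but only 22 bp upstream of CG4338, the neighbour that starts on the other strand 281 bp away. The start of the antisense RNA gene asRNA:CR46081 lay 717 bp from the second summit and 921 bp from the first. Cp190 held the only full DRE within the windows of 201 bp around the members' summits, across its transcript start, with a further CGATA beside it. CG14968 was most like Cp190 in ranks, at a summed difference of 0.198 percentile points and a pooled signal of 455.

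Of the members Dref, BEAF-32, CTCF, su(Hw), Ibf1 and Ibf2, whose products bind DNA sites directly, Dref had the highest pooled promoter signal. Its summit (chr2L, position 9967265) lay 36 bp upstream of its single start. The pooled signal was 231 at rank 1075. The signals were 85.3, 78.7 and 88.1 in replicates 1, 2 and 3 and the ranks 670, 1512 and 731, so that all 3 replicates placed it among their best 3123. The summits spread over 111 bp, with that of replicate 2 on the Dref side of the start, 37 bp inside the gene, and those of replicates 1 and 3 upstream. RpL13, a gene for a protein of the large ribosomal subunit, starts on the other strand 84 bp from Dref, and the pooled summit was 48 bp upstream of it. The gene most like Dref in ranks was RpL37A, also a ribosomal protein gene, at a summed difference of 0.610 percentile points and a pooled signal of 251.

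BEAF-32 had 2 retained summits 849 bp apart, at the first and at the last of its 3 transcript starts. The one at the last start (arm 2R, position 14771280, 21 bp upstream) had a pooled signal of 167 and rank 1954, with signals of 40.4, 63.7 and 72.4 and ranks of 3177, 2118 and 1137 in replicates 1, 2 and 3. The one at the first start (position 14770431, 38 bp upstream) had a pooled signal of 153 and rank 2305, with signals of 30.8, 90.9 and 31.7 and ranks of 5963, 1192 and 6518. The stronger of the pair was therefore the last start in replicates 1 and 3 and the first start in replicate 2. The antisense RNA gene asRNA:CR42254 starts 15 bp from the summit at the last start, and the files cannot assign the summit to one strand. Usp30, a deubiquitinase gene, was most like BEAF-32 in ranks, at a summed difference of 0.478 percentile points.

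CTCF had the weakest retained site of the set (chr3L, position 7356608), with a pooled signal of 141 and rank 2594. Its signals were 40.7, 63.6 and 38.04 in replicates 1, 2 and 3, at ranks 3121, 2119 and 4288. It stood just inside the best 3123 in replicate 1 and outside them in replicate 3. The pooled summit lay 105 bp inside the gene, in its 5′ UTR, and the replicate summits spread over 81 bp. The summit of replicate 1 was at position 7356527, within the stretch where CGATA and the CTCF core stand next to each other, as shown for CTCF. The antisense RNA gene asRNA:CR45822 starts 607 bp from the pooled summit, and mi was most like CTCF in ranks, at a summed difference of 0.691 percentile points. Of the members with a retained summit, BEAF-32 and CTCF did not have their strongest peak among the best 3123 of all 3 replicates: it was there in replicates 2 and 3 for BEAF-32 and in replicates 1 and 2 for CTCF. Over all retained peaks, counted singly and not by gene, 1824 of 3123 (58.4%) were among the best 3123 of all 3 replicates. When a retained peak had to be among the best-ranked of both replicates left, both genes dropped out without replicate 2, CTCF without replicate 1 and BEAF-32 without replicate 3, while Chro, pzg, Cp190, Dref and mod(mdg4) stayed in each time. All 9 retained summits of the members had an overlapping candidate in every replicate list, as did 3090 of all 3123 retained peaks. At the strongest sites of Chro, pzg, Cp190, Dref and mod(mdg4) the pooled −log10 q-value was 3.58, the ceiling that 60.5% of retained peaks shared, whereas it was 2.89 and 2.82 at BEAF-32 and 2.12 at CTCF.

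**Figure D2:**
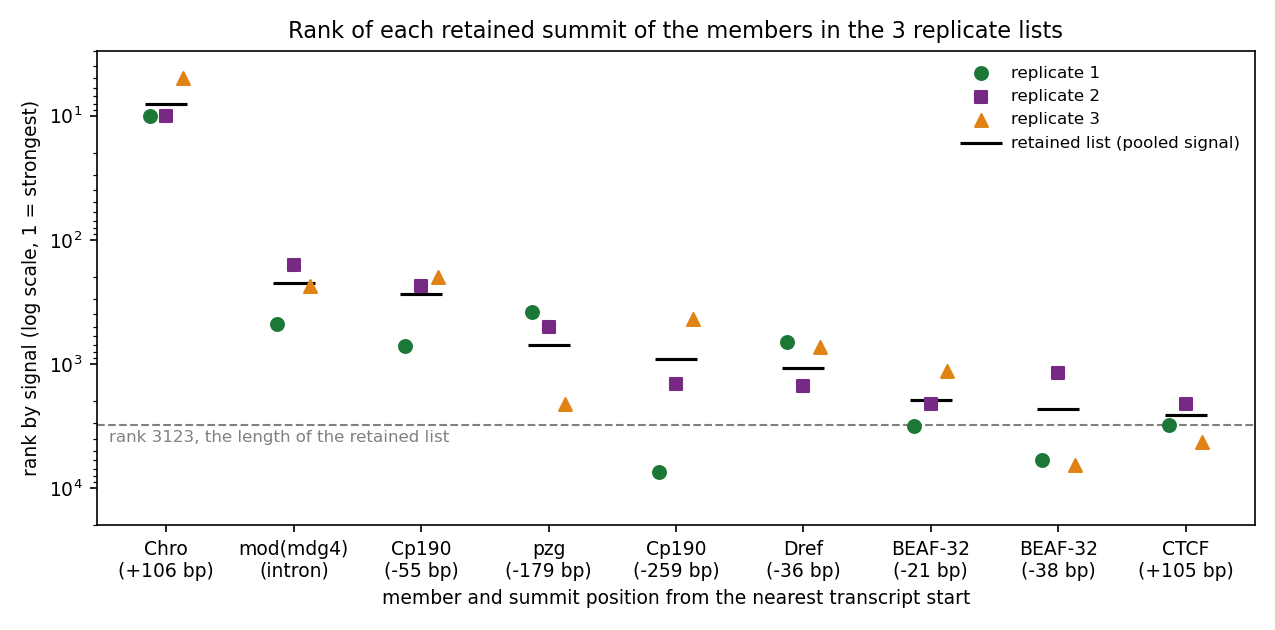
Rank by signal (y axis, log scale, strongest at the top) of the 9 retained summits of the members in each replicate list (symbols) and in the retained list (black bars), with the dashed line at rank 3123. Chro lies at ranks 5 to 10 in all replicates, and symbols fall below the line only at the second summit of Cp190, at BEAF-32 and at CTCF.

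mod(mdg4), whose many protein isoforms share a BTB domain and arise by trans-splicing, had its retained summit far inside the gene, while the candidate at its own start was not retained. All 22 annotated transcripts start at 1 position, and the retained summit (chr3R, position 21365459) lay 11942 bp downstream, in an intron of a gene of 26556 bp. Its pooled signal was 478 at rank 225, second to Chro among the members. The signals were 100.3, 235 and 141 in replicates 1, 2 and 3, at ranks 477, 161 and 236, and the summits agreed to 42 bp. The annotation lists 23 pre-mod(mdg4) genes here, the separately transcribed precursors that supply the variable last exons. Of these, 10 start within 500 bp of the summit: 7 on the plus strand (pre-mod(mdg4)-Y, -X, -AD, -AE, -W, -V and -U) at a shared start 150 bp away, and 3 on the minus strand (pre-mod(mdg4)-E, -C and -AB), of which pre-mod(mdg4)-E also has a start 29 bp away. The summit thus lay between the shared plus-strand start and the minus-strand start 169 bp away, which point away from each other, and 29 bp inside the longer pre-mod(mdg4)-E transcript. The su(Hw) core shown for mod(mdg4) is in the 5′ UTR of pre-mod(mdg4)-E. These 10 precursors count as protein-coding genes in the totals; without all 23 precursors the share of genes with a promoter summit was still 16.2%. Of the 764 genes at least as long as mod(mdg4), 353 (46.2%) had a retained summit in the gene or within 1 kb of a start.

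The other candidates along mod(mdg4) were weak. Its own start had a pooled candidate 117 bp downstream with a signal of 98.0 and rank 4758, below the retained list. The nearest candidates in replicates 1, 2 and 3 had signals of 31.6, 24.9 and 53.0 and ranks of 5576, 9912 and 2174. In replicate 3 this summit was on the start itself and within the best 3123, and in replicate 2 it was 4 bp upstream of the start. A candidate 25 bp upstream of a further precursor start, shared by pre-mod(mdg4)-AA, -N and -O, had a pooled signal of 95.3, and its summits fell on positions 21373598, 21373600 and 21373600 in replicates 1, 2 and 3. At ranks of 9952, 10788 and 3682 it was low in each list, although its position differed by only 2 bp.

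**Figure D3:**
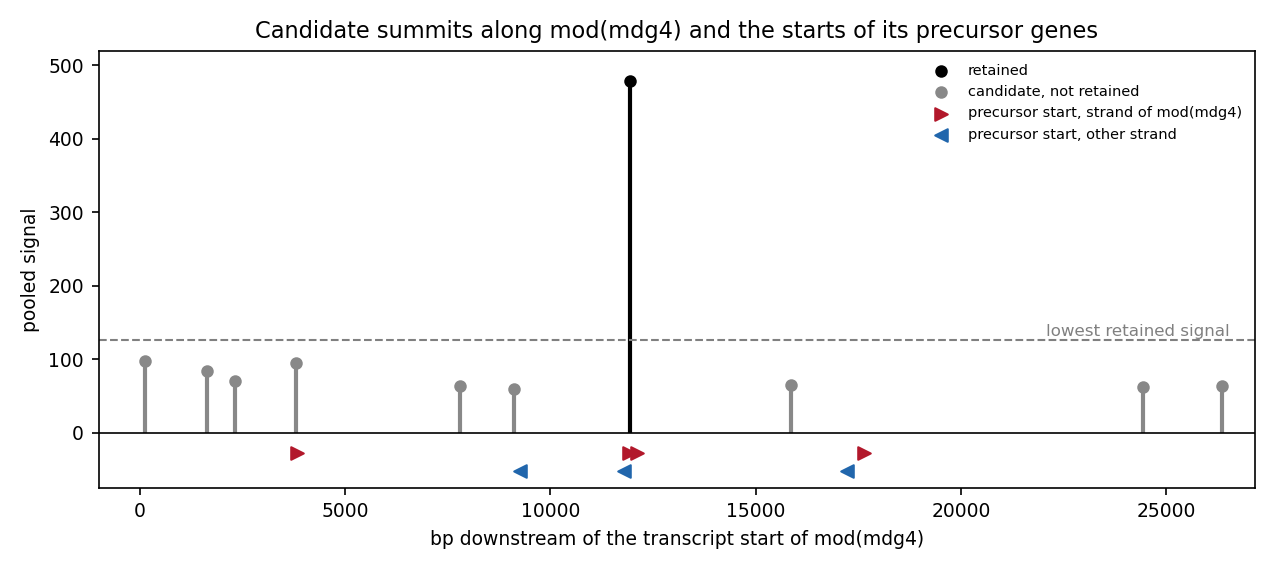
Pooled signal (y axis) of the 10 candidate summits along mod(mdg4) against distance downstream of its transcript start (x axis, bp), with triangles for precursor starts on the strand of mod(mdg4) and on the other strand and a dashed line at the lowest retained signal. The 1 retained summit, at 11942 bp and a signal of 478, lies at a cluster of precursor starts, and the other 9 are below 126.

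For su(Hw), the zinc-finger protein of the gypsy insulator, no summit was retained. A pooled candidate 252 bp upstream of its start (position 14308841) had a signal of 79.3 and rank 7232, and was 248 bp from Polr2I, a gene for an RNA polymerase II subunit that starts on the other strand 500 bp away. Replicates 2 and 3 had this summit at the same base, at ranks 5653 and 6263 and signals of 32.98 and 32.26, and replicate 1 listed no candidate within 500 bp of the start. The nearest retained summit was 18400 bp away, 42 bp from the start of ATPsynE. Ibf1 and Ibf2, whose products bind insulator DNA together and recruit Cp190, start head to head 463 bp apart. They shared 1 pooled candidate (position 9258486), at a signal of 55.1 and rank 16987, near the bottom of the list. A counterpart within 100 bp was listed in replicate 3 alone, at rank 6193 and a signal of 32.4. The nearest retained summit (signal 135, rank 2816) was 1650 bp from the Ibf1 start and 24 bp from the start of ATP6AP2. Absence from the retained list says that a site did not pass the threshold, not that the protein was absent.

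**Figure D4:**
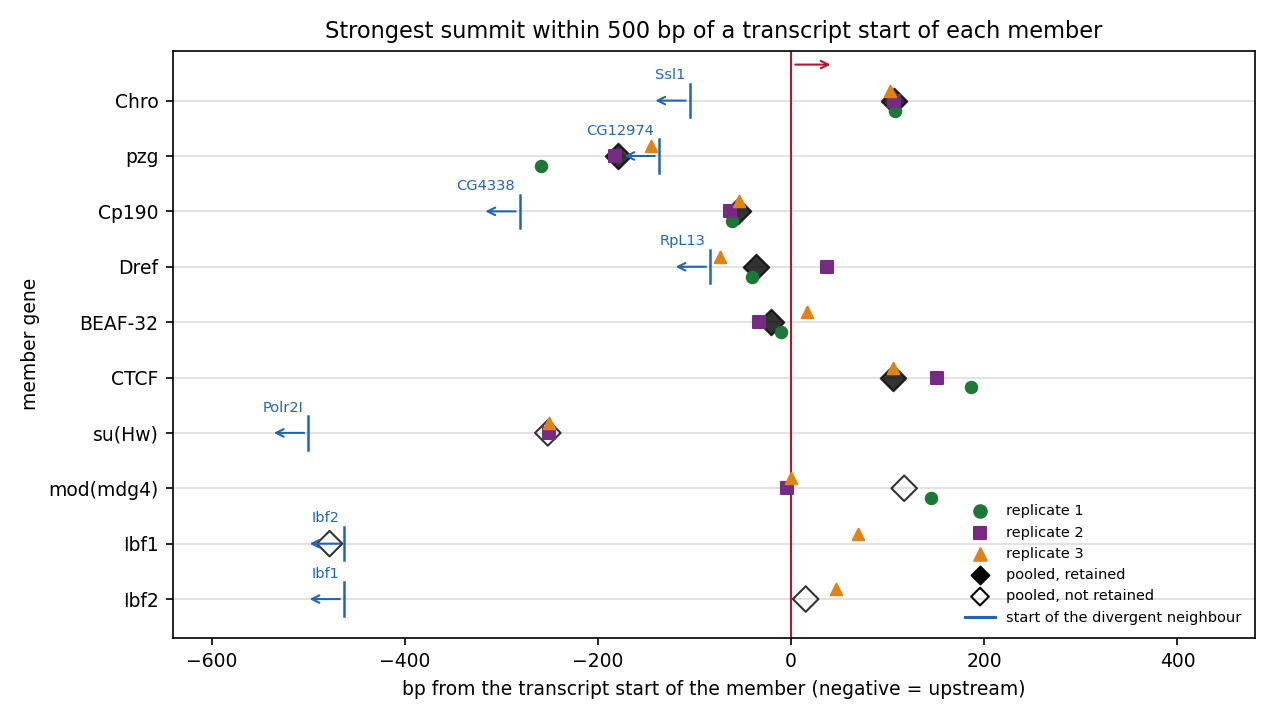
Position of the strongest summit within 500 bp of a transcript start for each of the 10 members (x axis, bp from the nearest start of that member, negative is upstream), in the pooled list (diamonds, filled where retained) and in each replicate list (symbols), with blue bars at the start of a divergent neighbour. The replicate summits of Chro coincide within 5 bp, those of pzg, Dref and CTCF are spread more widely, and replicate 2 is plotted from the first start of BEAF-32 while the others are plotted from the last.

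A protein-coding neighbour on the other strand starts within 500 bp upstream of 7 of the 10 members, against 27.4% of all protein-coding genes, and Ibf1 and Ibf2 are each other's neighbour. Of these 7, Chro, pzg, Cp190 and Dref had a retained promoter summit, and su(Hw), Ibf1 and Ibf2 did not. Of the 3 members without such a neighbour, 2 (BEAF-32 and CTCF) had a retained promoter summit. Among all genes, 33.6% of the 3815 head-to-head genes and 9.72% of the 10130 others had one. At pzg, where the summit lay inside the neighbour, and at the second summit of Cp190, the peak was nearer to the neighbour than to the member. A summit within 500 bp of both starts belongs to both genes in these counts.

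CGATA was found within 100 bp of 6 of the 9 retained member summits, at 1 summit for each of the 6 promoter-bound members, against 32.8% of all 3123 retained summits in windows of the same 201 bp. Among the 1724 retained summits within 500 bp of a TSS the share was 41.5%, and among the 16081 unretained candidates 24.3%. Of the 9, 8 lay within 500 bp of a start of their member, and that of mod(mdg4) within 500 bp of precursor starts. Both shares are therefore given for the other motifs. The full DRE was at 1 of the 9 (Cp190), against 4.90% of all retained and 8.58% of retained promoter summits. The CTCF core was at 1 (CTCF itself), against 3.30% and 2.67%, and the su(Hw) core at 1 (mod(mdg4)), against 2.37% and 1.51%. The E-box CAGCTG was at CTCF, against 11.2% and 14.4%, and core promoter motif 7 at Chro, against 16.3% and 25.4%. GAGAG, the letters bound by the GAGA factor, was at none of the 9, against 24.0% and 21.9%. GGTCACACT, core promoter motif 1, was also at none, against 2.37% and 4.06%. A match is a description of these windows and not evidence that a factor was bound.

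Of 19 distinct unretained candidates at the members, 4 (21.1%) had a summit within 100 bp in all 3 replicates, against 22.4% of the 16081 unretained candidates. They were 2 at Dref (positions 9965563 in a coding exon and 9967966 upstream), 1 in a coding exon of CTCF (7355297) and the one at mod(mdg4) described above. Their share was close to the background.

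A wider list of 23 genes for other insulator and architectural proteins was looked at in the same way, and 8 of them had a retained promoter summit, against 16.2% of all genes. Of 10 further DNA-binding boundary proteins, 2 had one, a share (20%) close to that of all genes: Trl (the GAGA factor) and pita (a zinc-finger boundary protein), with pooled signals of 297 and 200.2, whereas Clamp and Elba1 were among the 8 without. Trl also had the strongest site of the wider list, a summit with a signal of 1026 and rank 38. This summit was in the gene or within 1 kb of a start, but not within 500 bp of one. Of 13 cofactors and architectural partners, 6 had one, led by fs(1)h (a BET bromodomain protein, 296), shep (an RNA-binding protein, 264), Cap-H2 (a condensin II subunit, 240) and l(3)mbt (an MBT-domain protein, 216). JIL-1, the histone kinase that works with Chro, and Nipped-B, the cohesin loader, had none at a promoter, although JIL-1 had 4 retained summits in the gene or near a start, the strongest with a signal of 432.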

How the data were processed

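ChIP-seq peak lists on dm6 were used for 3 replicates, for the pooled replicates and for the retained set; lists on dm3 were not used here. Per the labels, chromatin was sonicated (fragments of 200 to 800 bp). The lists were deposited as input to, or output of, the irreproducible discovery rate, a method based on how alike peaks rank in replicates. The retained list matched a cutoff on pooled signal, so a single retained peak need not rank alike in all replicates. Which aligner, caller and threshold were used was not given in the sources used here. The signal and the −log10 q-value of each peak, and its summit position, are the authors' deposited values; no scaling between lists is stated, so replicates were compared by rank. Summits were assigned to genes of Ensembl annotation 115 (release 6, the dm6 assembly) with Python 3.11.15, numpy 2.4.6 and pandas 2.3.3; every peak ended within the release 6 arm lengths. "Within 500 bp" is measured from any transcript start. A retained peak was found in a replicate when it overlapped one of that replicate's best 3123 peaks by at least 1 bp, with values from the overlapping peak of nearest summit. With 1 group there was nothing to test, and no p-value is given. Counting was checked on simulated summits. The members, the wider list and the motifs were chosen with earlier results of these data known. Genes named are the members, genes starting within 1 kb of their retained summits, the gene most like each promoter-bound member, and per wider sublist up to 4 bound genes by signal and 2 unbound by alphabet; ATPsynE, ATP6AP2, Polr2I and pre-mod(mdg4)-AA, -N and -O were named after their values were seen. Alternatives varied the distance, the summit or midpoint, the list length, the overlap, the starts, the motif window and the replicates.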

Additional observations from a re-analysis of the deposited data

How the results depend on the processing

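Of 55 recomputed counts and shares, 52 stayed within 1.5 times the value given. In the 1561 retained peaks with the highest signal, the share of all genes with a promoter summit was 8.92%, against 16.2%; 4 members (Chro, pzg, Cp190 and Dref) were then counted. The DRE was at 0 member summits in windows of 101 bp and at 2 (Cp190 and CTCF) in windows of 301 bp, against 1 at 201 bp. With 1 replicate left out, a retained peak had to be among the best-ranked of both replicates left. The main counts had no such demand. Between 4 and 5 members then had a promoter summit, against 6, and 5 to 6 a summit in the gene or within 1 kb of a start, against 7. Between 6 and 8 wider-list genes and 10.99% to 12.3% of all genes had a promoter summit. These settings left fewer peaks (2094 to 2173). With the demand made of all 3 replicates, 4 members, 6 wider-list genes and 9.94% of all genes had one. The lower counts are therefore not a like-for-like effect of leaving out a replicate. A strongest peak among the best-ranked of the replicates left was found for 5 to 6 members, against 5. Pooled candidates remained at 7 to 8 members, against 10, and at 44.9% to 50.6% of all genes, against 59.4%. With 2 kb around each start, Ibf1 was added. Distances of 200 and 1000 bp kept 6 members, while the share of all genes was 11.9% and 18.7%. The rank percentile among retained peaks moved by over 1 SD of the replicates in 1 of 28 values: CTCF, 28.4 without replicate 3, against 17.0. These values are means over the same replicates that give the SD, so a move within 1 SD does not show stability. For pzg they ran from 60.5 to 85.7, against 77.6, with an SD of 28.1. Leaving out replicates for pooled candidates and percentiles, and leaving out the precursors, were chosen after seeing the data. No paired analysis was possible because there was 1 group. Depth is unknown, so detection limits cannot be given.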

Other observations

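The 5 words of 8 bases most concentrated within 50 bp of the 3114 retained summits that belong to no member, against windows 500 bp away, were also looked for at the members' 9 summits. ATCGATAG, which shares letters with the DRE, was at Dref alone, against 98 of the 3114 other summits. The start of Cp190 shown above also holds it, but beyond 50 bp from the summit. AAAATATT was at Cp190 alone, against 162 of the 3114. ATTTAAAA, TTTAAAAA and TATTTTAA were at none of the 9, against 161, 146 and 132 of the 3114 other summits.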
